A study of Mus with 15 samples.

Results

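Voltage-gated calcium and sodium channel genes were examined for peaks of monoubiquitinated histone H2A (H2AK119ub1, written H2Aub) in the thalamus of mice treated with cocaine or saline. Members were the protein-coding genes on chromosomes 1 to 19 whose symbol begins with Cacn, or with Scn followed by a digit, which gave 39 of 20665 genes. They comprised 25 calcium channel genes and 14 sodium channel genes. By role these were 9 calcium α1 subunits, 4 α2δ, 4 calcium β and 8 γ subunits, 10 sodium α subunits and 4 sodium β subunits. The X-linked calcium channel gene Cacna1f lay outside the rule and had a peak in 1 of 11 libraries. The study had 11 H2Aub libraries, 3 each from WT mice given cocaine, WT mice given saline and cKO mice given saline, and 2 from cKO mice given cocaine. WT mice carried the floxed Maged1 allele (Maged1 loxP) without Cre. In Maged1-cKO mice Maged1 was deleted by Vglut2-Cre, that is, in Vglut2 cells, which leaves the gene intact in every other cell of the thalamus. All mice were 2 to 4 months old and had 3 days of saline injections, followed by 5 days of cocaine (20 mg/kg) or saline. Each library came from pooled thalami, 3 to 4 per sample according to the labels and a lower minimum in the methods of the study.

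H2Aub is laid down by Polycomb repressive complex 1 and is known from developmental genes that are kept silent, but also from the promoters of many expressed genes. Voltage-gated calcium channels are built around a pore-forming α1 subunit, which sets the current type, and most are joined by an α2δ and a β subunit that bring them to the membrane and tune their gating. Several γ subunits act as auxiliary proteins of AMPA receptors in neurons. Sodium channels pair a pore-forming α subunit with β subunits, which shape gating and adhesion. In thalamic relay neurons, T-type calcium channels drive the burst firing seen after hyperpolarization. Peaks record the histone mark and not the expression of these genes.

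Each gene was measured in a window of its body plus 5 kb at either side, as the length of DNA under peaks (covered length, in bp) in each library. The lists held 7235 to 79872 peaks on chromosomes 1 to 19, which covered 4.23 to 27.3 Mb. The study states a minimum read number for all samples, but the depth of each library is unknown, so a longer list and more marked chromatin cannot be told apart. Replicate 1 of cKO cocaine and replicate 1 of cKO saline stood apart with 54201 and 79872 peaks, against 7235 to 25972 in the other 9 libraries, and comparisons of cKO libraries are given with and without them. Hox genes, the classical Polycomb targets, all had a peak in all libraries and 566 to 943 bp under peaks per kb of window, whereas ribosomal protein genes had 0.445 to 12.1 bp per kb. Among thalamic neuron genes, Gbx2 and Lef1 had peaks in 11 libraries and Slc17a6, which encodes Vglut2, in 9. The Maged1 window held no peak in any library, so the lists offer no check of the deletion.

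Between 14 and 38 of the 39 channel genes had a peak in a library, with a median of 64.1% of members. In the 9 libraries other than the cKO replicates 1 the share ran from 35.9 to 69.2%, beside 13.2 to 29.2% of the other protein-coding genes. Channel genes are long, with a median window of 120 kb against 27.4 kb for the other genes, and a longer window has more room for a peak. Within windows under 50 kb, the median share was 60% of 10 channel genes and 19.2% of other genes, and the channel share was above in 11 of 11 libraries. From 50 to 150 kb the shares were 56.3% of 16 channel genes and 29.7%, again above in 11 of 11 libraries. Over 150 kb they were 61.5% of 13 channel genes and 45.6%, and above in 8 of 11.

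A set of 12 members had a peak in all 11 libraries, which is 30.8% of members beside 7.13% of all protein-coding genes. They included the α1 genes Cacna1c, Cacna1e, Cacna1g, Cacna1h, Cacna1i and Cacna1s, the β gene Cacnb3, the γ genes Cacng6 and Cacng8, and the sodium channel genes Scn4b and Scn8a. Another 21 members had peaks in 3 to 10 libraries, and 5 (Scn1a, Scn3a, Scn7a, Scn9a and Cacng1) in 1 or 2. Scn2a was the only member without a peak in any library, beside 31.3% of all protein-coding genes. Covered length was concentrated in few members, with 42.3% of the mean total in the leading 5 and 67.4% in the leading 10. The heat map of covered length shows this split, with full rows for genes marked in every library and almost wholly grey rows for the sodium α genes of chromosome 2.

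**Figure D1:**
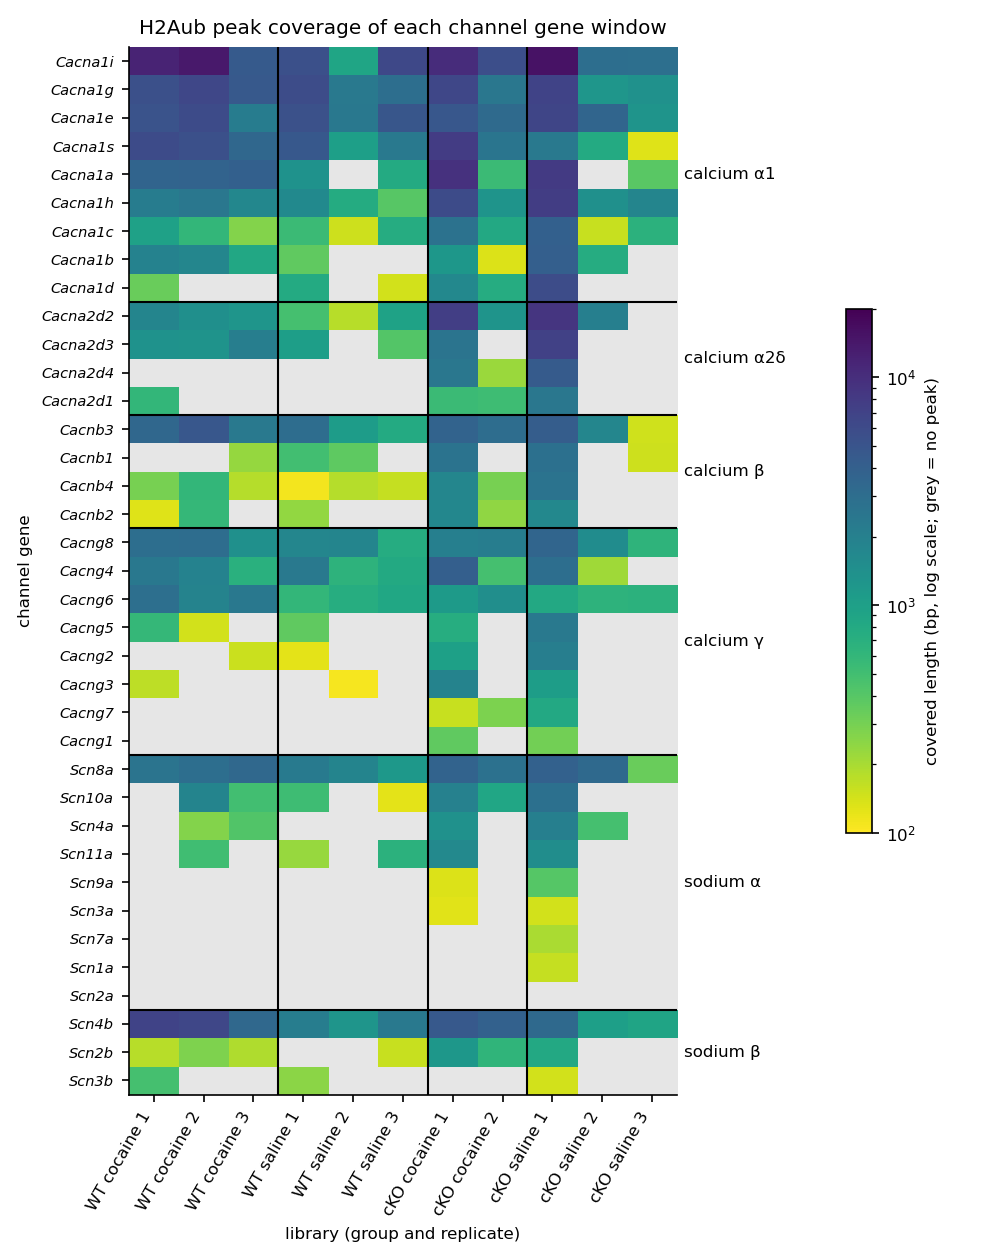
Covered length (bp, colour on a log scale, grey for no peak) in the windows of 37 of the 39 channel genes (rows, grouped by subunit class) in each of the 11 libraries (columns, grouped by genotype and treatment). A set of 11 of these genes is coloured in every column, and Scn1a, Scn3a, Scn7a and Scn9a are coloured only in cKO cocaine replicate 1 or cKO saline replicate 1.

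Peaks were denser at the ends of the genes than in the rest of the windows. The annotation used has no strand, so the start of transcription could not be told from the other end, and both ends were examined from 5 kb outside to 2 kb inside the gene. These end stretches made up 8.27% of the channel windows and held 30.1 to 70.3% of their covered length (median 51.7%). Covered length per kb was 4.78 to 26.3 times that of the rest of the windows (median 11.9), and above it in 11 of 11 libraries. For all protein-coding genes the same ratio was 3.05 to 8.09 (median 5.81). A library had 30 to 356 peaks in channel windows, with median widths of 206 to 534 bp.

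At several members the same short stretch of bases was under a peak in nearly every library. Bases common to all 11 libraries lay in the windows of Cacna1g, Scn4b and Scn8a. At Cacna1g, which encodes a T-type α1 subunit and lies on chr11:94408391-94474400 (mm10), the stretch chr11:94472885-94473852 (968 bp) was covered in at least 9 libraries, with its midpoint 1032 bp inside the end of higher coordinate. A shorter stretch of 212 bp, chr11:94475114-94475325, lay just outside that end. At Scn4b, chr9:45139144-45139549 (406 bp) was covered in at least 9 libraries, 723 bp inside the lower end of the gene. Cacna1e shared chr1:154883477-154883821 (345 bp), 1136.5 bp inside its higher end. Cacna1i shared 174 bp at chr15:80288213-80288386, 1062 bp inside its lower end. The stretches of Scn8a, 255 bp at chr15:101046007-101046261 and 474 bp at chr15:101047206-101047679, lay outside the gene beyond its higher end and near Fignl2, so these peaks cannot be assigned to Scn8a rather than to its neighbour.

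**Figure D2:**
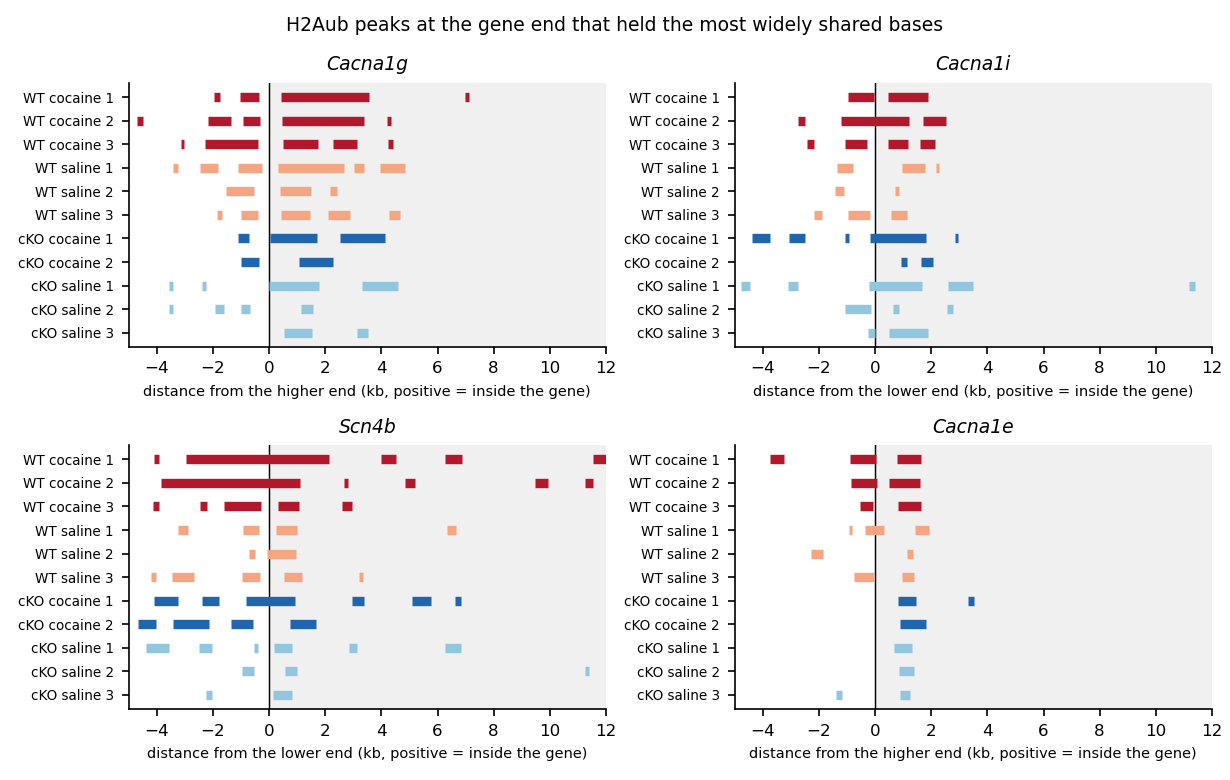
Peaks (bars) of each of the 11 libraries (rows, coloured by group) at 1 end of Cacna1g, Cacna1i, Scn4b and Cacna1e, plotted as distance in kb from the gene end that held the most widely shared bases, with positive values and grey shading inside the gene. Peaks of the libraries stack within 2 kb inside the end, and at Scn4b those of WT cocaine replicates 1 and 2 run on across the end as a single long peak.

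Among the α1 genes, the T-type trio Cacna1g, Cacna1h and Cacna1i was densely covered, with 14.9 to 111 bp per kb of window (median 40.0) beside 3.14 to 25.1 bp per kb (median 8.85) for the 9 α1 genes together, the trio included. By gene, the mean was 60.1 bp per kb for Cacna1i, 55.2 for Cacna1g and 34.3 for Cacna1h, beside 43.2 for the L-type gene Cacna1s. Cacna1i led all members with a mean of 7277 bp over the libraries. It had 11739, 14051 and 4495 bp after cocaine and 5485, 880 and 6341 bp after saline in WT (replicates 1 to 3 in order), and 10260 and 5583 bp after cocaine and 15388, 2922 and 2898 bp after saline in cKO. The ranges overlapped in both genotypes, and WT cocaine replicate 3 was below WT saline replicates 1 and 3. For Cacna1g the values were 5511, 6488 and 4552 bp after cocaine and 5832, 2369 and 2962 bp after saline in WT, and 6540 and 2468 bp after cocaine and 6829, 1231 and 1363 bp after saline in cKO. Here too the groups overlapped, since WT saline replicate 1 exceeded 2 of the 3 WT cocaine libraries. Cacna1h held 2140, 2456 and 1721 bp in WT after cocaine against 1620, 766 and 400 bp after saline, so that the WT groups did not overlap. In cKO it held 5966 and 1291 bp after cocaine and 7616, 1387 and 1800 bp after saline, and these ranges overlapped. Most of its covered length (88.5%) lay in the interior of the gene.

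The α1 genes of presynaptic channels differed from each other. Cacna1a, the P/Q-type subunit, had 3649, 3698 and 3955 bp in WT after cocaine but 1341, 0 and 778 bp after saline, a mean of 3767 ± 164 against 706 ± 673 bp (SD, n = 3 each). In cKO its cocaine libraries had 9421 and 545 bp and its saline libraries 8099, 0 and 385 bp, with the high values only in the replicates 1. Cacna1b, the N-type subunit, had 1900, 1747 and 833 bp in WT after cocaine and 363, 0 and 0 bp after saline. In cKO it had 1221 and 131 bp after cocaine but 3988, 747 and 0 bp after saline, so that the groups overlapped. WT cocaine was thus above WT saline without overlap for both genes. Cacna1e, the R-type subunit, had group means that differed by less than their SDs, at 4426 ± 2006 bp after cocaine and 4212 ± 1579 bp after saline in WT (SD, n = 3 each), and 4008 ± 1108 bp (SD, n = 2) and 3811 ± 2661 bp (SD, n = 3) in cKO.

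L-type α1 genes ranged from broad to sparse coverage. Cacna1s, which is best known as the skeletal muscle subunit, had 6016, 5502 and 3381 bp after cocaine and 4670, 1008 and 2344 bp after saline in WT, and 7835 and 2567 bp after cocaine and 2371, 790 and 129 bp after saline in cKO. Its groups overlapped in WT and not in cKO, and its most widely shared bases (7 libraries) lay within 5 kb of Ascl5. Cacna1c, the L-type subunit of heart and brain, had peaks in all libraries but only 150 to 3969 bp, none of it at the gene ends. Cacna1d, the L-type subunit of pacemaking cells, had peaks in 6 libraries, with 337, 0 and 0 bp in WT after cocaine and 791, 0 and 144 bp after saline.

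Genes of the auxiliary calcium channel subunits were less evenly marked. Together the α2δ genes had a median of 1.31 bp per kb, with 0 bp in cKO saline replicate 3. Cacna2d2 had 1780, 1441 and 1261 bp in WT after cocaine and 480, 175 and 950 bp after saline, and Cacna2d3 had 1349, 1318 and 2089 bp against 1033, 0 and 416 bp, so neither gene overlapped between the WT groups. Cacna2d4 had no peak in any WT library, 2441 and 224 bp in cKO cocaine, and 4374, 0 and 0 bp in cKO saline. Cacna2d1, the gene of the main gabapentin-binding subunit, had peaks in 4 libraries.

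Of the β genes, which encode the intracellular subunit that escorts α1 to the membrane, Cacnb3 was the most densely covered, at a mean of 98.2 bp per kb of window. It had 3439, 4708 and 2350 bp in WT after cocaine and 3040, 1079 and 778 bp after saline, which overlapped. Cacnb4 had little, 298, 605 and 182 bp in WT after cocaine and 110, 180 and 160 bp after saline, a separation that rests on 2 bp between its lowest cocaine and highest saline library. Cacnb1 and Cacnb2 had peaks in 6 libraries each.

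The 8 γ genes had a median of 9.50 bp per kb. Cacng6, related to the γ subunit of skeletal muscle, had 2905, 1887 and 2410 bp after cocaine and 594, 739 and 856 bp after saline in WT, and 1122 and 1465 bp after cocaine and 811, 653 and 659 bp after saline in cKO. Every cocaine library was above every saline library of its genotype, and both cKO cocaine libraries were below all WT cocaine libraries. Most of its covered length (92.9%) lay at its lower end. Cacng8, an AMPA receptor auxiliary subunit, had 2925, 3023 and 1396 bp in WT after cocaine and 1756, 1777 and 747 bp after saline, which overlapped. Cacng4 had peaks in 10 libraries, Cacng5 in 5, Cacng2 (stargazin) and Cacng3 in 4 each, Cacng7 in 3 and Cacng1 in 2. Cacng6, Cacng7 and Cacng8 are neighbours on chromosome 7, as are Cacng1, Cacng4 and Cacng5 on chromosome 11.

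Sodium α genes split by location. Scn3a, Scn2a, Scn1a, Scn9a and Scn7a, which lie in a row on chr2:65457118-66784910, had no peak in any of the 9 libraries other than the cKO replicates 1. Lacking a peak in these 9 libraries is common. Among all protein-coding genes, 31.3% had no peak in any library and a further 26.8% had peaks only in the cKO replicates 1. Scn1a, which encodes a main sodium channel of fast-spiking neurons, had a single peak of 160 bp in cKO saline replicate 1. Scn3a had 126 and 144 bp and Scn9a 131 and 403 bp in cKO cocaine replicate 1 and cKO saline replicate 1, and Scn7a had 194 bp in the latter.

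Other sodium α genes were marked in part of the libraries or in all of them. Scn8a, whose product sits at the axon initial segment, had 2610, 2935 and 3356 bp in WT after cocaine and 2324, 1816 and 1191 bp after saline, without overlap. Over all 11 libraries, most of its covered length (83.2%) lay at the end shared with Fignl2. Scn10a and Scn11a, neighbours on chromosome 9 and known from sensory neurons, had peaks in 7 and 5 libraries, and Scn4a, the skeletal muscle gene, in 5.

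Scn4b was the most densely covered member, with a mean of 128 bp per kb of its window. The 4 sodium β genes together had 9.15 to 74.6 bp per kb (median 33.6), most of it from Scn4b, whose product is known for its part in resurgent sodium current. It had 6920, 6523 and 3330 bp after cocaine and 2123, 1255 and 2355 bp after saline in WT, and 4518 and 3874 bp after cocaine and 3253, 1009 and 908 bp after saline in cKO. Cocaine libraries were above saline libraries without overlap in both genotypes. Scn2b, whose window overlaps that of Scn4b, had 178, 277 and 188 bp after cocaine and 0, 0 and 156 bp after saline in WT, and 1220 and 620 bp after cocaine and 818, 0 and 0 bp after saline in cKO. Its higher end held 93.3% of its covered length, and its most widely shared bases also lay within 5 kb of Scn4b. In WT, all covered length of Scn2b lay in the stretch shared with the Scn4b window, so the same bases counted for both genes. Scn3b had peaks in 3 libraries.

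To place the channel genes among other membrane proteins of neurons, covered length per kb of window was compared between gene sets within each library. Channel genes had 1.88 to 20.6 bp per kb (median 6.72) and genes of glutamate and GABA receptors 0.279 to 8.32 bp per kb (median 1.82). The ratio was 4.07-fold (mean log2 ratio 2.02 ± 0.51, SD, n = 11 libraries), and channel genes were above in 11 of 11 libraries (exact sign-flip permutation test, two-sided, p = 0.000977, the smallest possible, adjusted over 3 set comparisons p = 0.00293). All libraries measure the same genes, so these tests cover the spread between libraries and not that between genes. The density of channel genes did not differ detectably from that of 92 potassium channel genes (mean log2 ratio −0.01 ± 0.25, above in 6 of 11, exact sign-flip permutation p = 0.931, adjusted p = 0.931). Nor did it differ detectably from that of all other protein-coding genes (−0.08 ± 0.36, above in 4 of 11, exact sign-flip permutation p = 0.444, adjusted p = 0.667). The cKO replicates 1 had the highest of these last ratios, 0.37 and 0.45, and without them the mean was −0.19 and the exact permutation p was 0.0977. With the same number of peaks taken from each list (the 7235 with the lowest p-values), channel genes fell below other genes by a log2 ratio of 0.37 (exact permutation p = 0.00781) and below potassium channel genes by 0.21 (exact permutation p = 0.0195). The same peaks lie in several sets where windows of neighbouring genes overlap. Because peaks were denser at gene ends, covered length per kb also depends on gene length, which was not matched between sets. The windows spanned 6.55 Mb for the 39 channel genes and 12.3 Mb for the 43 receptor genes. The median share of genes with a peak was 64.1% for channel, 34.9% for receptor, 54.3% for potassium channel and 23.3% for other protein-coding genes.

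**Figure D3:**
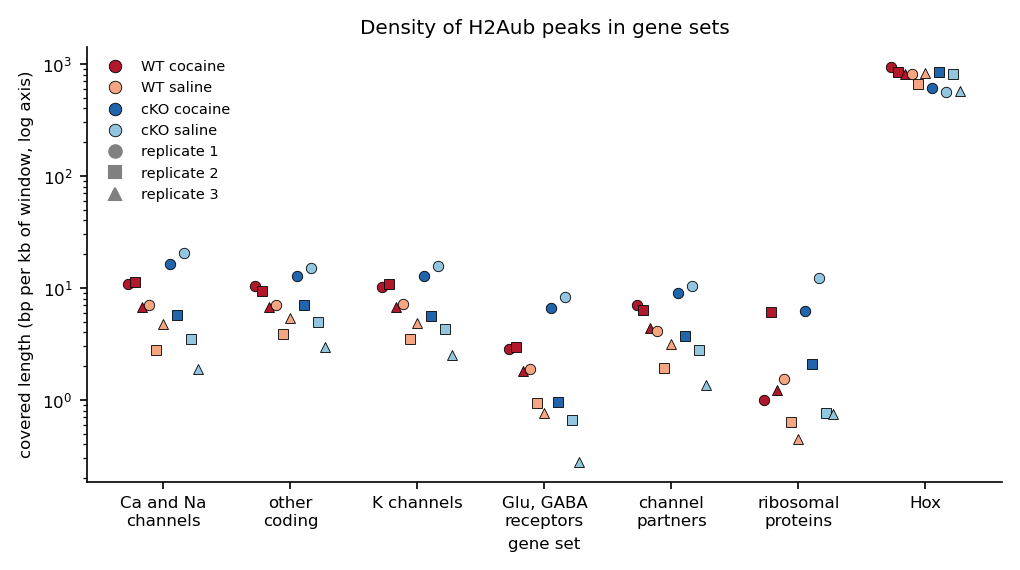
Covered length per kb of window (log axis) in each of the 11 libraries (points, coloured by group, marker by replicate number) for channel genes and 6 other gene sets. Channel genes sit between 1.88 and 20.6 bp per kb, level with potassium channel genes and other protein-coding genes, above receptor genes in every library, and far below the Hox genes at 566 to 943.

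The effect of cocaine was compared within each genotype, with the library as the replicate. In WT mice 25, 25 and 23 channel genes had a peak after cocaine and 27, 17 and 22 after saline, which is 62.4 ± 2.96% and 56.4 ± 12.8% of members (SD, n = 3 each). The difference of 5.98 ± 7.60 percentage points (SE) was within the spread of the libraries (exact permutation test, two-sided, p = 0.60, adjusted over 8 comparisons p = 0.96). Of the other protein-coding genes, 25.3 ± 3.56% had a peak after cocaine and 20.2 ± 6.24% after saline (SD, n = 3 each). Covered length in channel windows was 71.3, 73.6 and 44.0 kb after cocaine and 45.6, 18.4 and 31.4 kb after saline. The means were 63.0 ± 16.5 and 31.8 ± 13.6 kb (SD, n = 3 each), a difference of 1.04 ± 0.45 (SE) on the log2 scale or 2.06-fold. The groups overlapped between WT cocaine replicate 3 and WT saline replicate 1, and the exact permutation p was 0.20 (adjusted p = 0.96). No test of 3 against 3 or 2 against 3 libraries could go below 0.10.

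WT cocaine lists were also longer on average, though WT saline replicate 1 held more peaks than WT cocaine replicates 1 and 3 and covered more bases than replicate 3. The WT cocaine peaks covered 10.4 to 17.2 Mb against 5.54 to 11.1 Mb in WT saline. With equal numbers of peaks per library, the log2 difference at channel genes was 0.79 (exact permutation p = 0.10) and the share of genes with a peak differed by 5.13 percentage points (exact permutation p = 0.20). As a share of each library's covered length, channel windows held 0.415, 0.492 and 0.425% after cocaine and 0.412, 0.333 and 0.374% after saline. These shares did not overlap, with a log2 difference of 0.25 (exact permutation p = 0.10, the smallest possible). The separation is that between 0.415 and 0.412%.

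**Figure D4:**
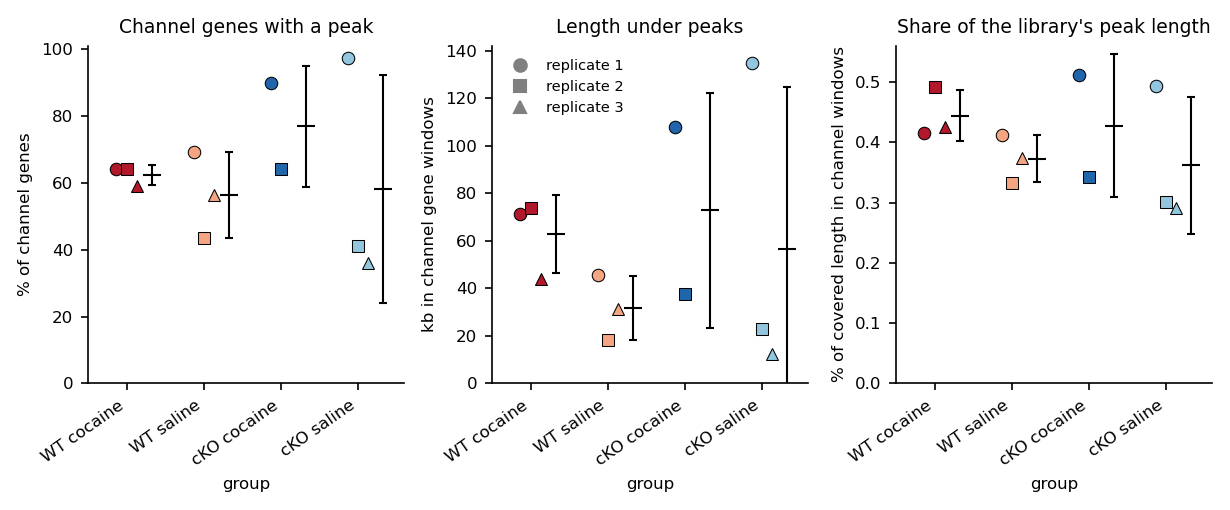
Percentage of channel genes with a peak, kb under peaks in channel windows, and the share of a library's covered length that lay in channel windows, by group (points are libraries, marker by replicate number, black bars mean ± SD, drawn down to 0 at most). WT cocaine lies at 44.0 to 73.6 kb and WT saline at 18.4 to 45.6 kb, and replicate 1 is far above the other libraries of its group in both cKO groups.

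Gene by gene, 11 of the 39 members (28.2%) had more covered length in every WT cocaine library than in any WT saline library, beside 6.13% of all protein-coding genes. No member had less in every cocaine library, beside 0.111%. They included Cacna1a, Cacna1b, Cacna1h, Cacna2d2, Cacna2d3, Cacnb4, Cacng6, Scn2b, Scn4b and Scn8a. Cacnb4 is the only calcium β gene among them and is apart by 2 bp, and most peaks of Scn8a lie by Fignl2. The WT covered length of Scn2b lies wholly in the window of Scn4b, so Scn2b is not a separate case. For a single gene such a separation has an exact permutation p of 0.10. Only a gene with a peak in every WT cocaine library can be counted as higher. In a WT cocaine library 59.0 to 64.1% of channel genes had a peak, against 22.2 to 29.2% of other genes, and the shares were not matched for this. By window length, the 11 members comprised 3 of 10 under 50 kb, 3 of 16 from 50 to 150 kb and 5 of 13 above, beside 5.51, 7.05 and 9.14% of other genes in these classes. The plot of WT values shows that the separations are wide for Cacna1a and Cacng6 and narrow for Scn8a, Cacna1h, Cacnb4 and Scn2b, and that Cacna1g, Cacna1i, Cacna1e, Cacna1s and Cacnb3 overlap.

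Fewer genes were separated under both scalings that take account of list length. With covered length divided by each library's total, a scaling chosen after seeing the data, 3 members were higher after cocaine (Cacna1a, Cacna1b and Scn4b, 7.69% beside 2.98% of all protein-coding genes) and 1 was lower (Cacna1e, 2.56% beside 0.977%). With equal numbers of peaks per library 6 members were higher (among them Cacna1a, Cacng6, Cacng8, Scn2b and Scn4b, 15.4% beside 3.17%) and none was lower. Cacna1a and Scn4b were among the higher genes under each of these settings. With equal numbers of peaks, the WT covered length of Scn2b again lay within the Scn4b window.

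**Figure D5:**
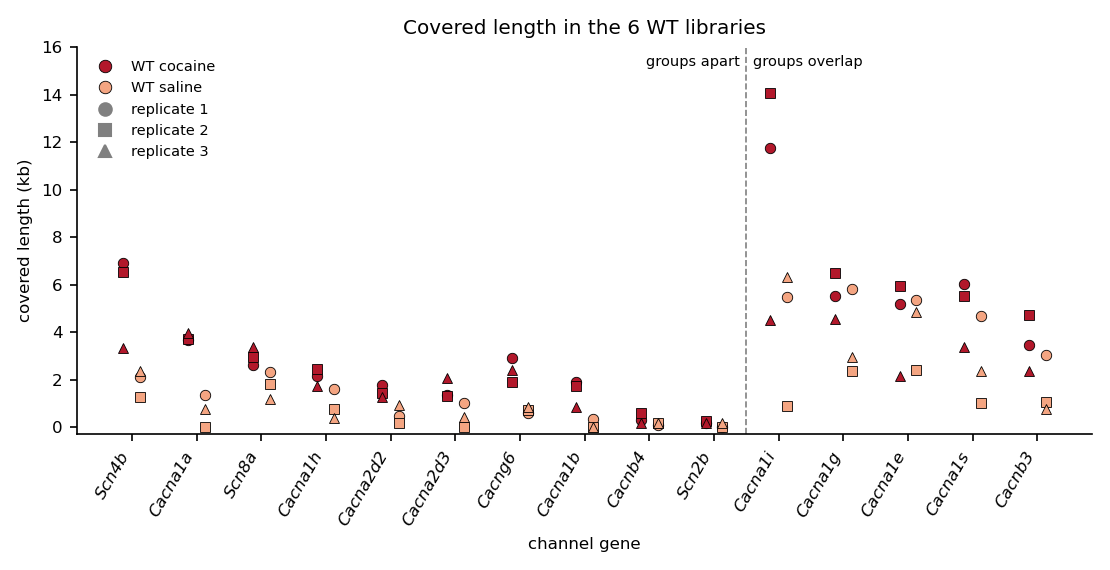
Covered length (kb) in the 3 WT cocaine and 3 WT saline libraries (points, marker by replicate number) for 10 of the 11 members whose groups do not overlap (left of the dashed line) and for the other members among the 10 with the highest mean (right). Cacna1a lies at 3649 to 3955 bp after cocaine and at 0 to 1341 bp after saline, while for Cacna1i WT cocaine replicate 3 falls among the saline libraries.

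The methods of the study count a region as an H2Aub+ element when at least 2 replicates of a group share it. Counting bases under a peak in at least 2 replicates anywhere in the gene window, 18 members had an element after cocaine and 15 after saline in WT, and 20 and 14 did so in cKO. These are 46.2, 38.5, 51.3 and 35.9% of members, beside 18.8, 13.5, 13.6 and 11.9% of all protein-coding genes. In WT, 4 members had an element after cocaine and not after saline (Cacna1a, Cacna1b, Cacna2d3 and Scn2b, 10.3% beside 6.81% of all protein-coding genes). The converse held for Scn10a alone (2.56% beside 1.51%). The WT cocaine element of Scn2b lay in bases shared with the Scn4b window. No member had a peak in all WT cocaine and no WT saline libraries, beside 0.677%.

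In cKO mice, 35 and 25 channel genes had a peak after cocaine and 38, 16 and 14 after saline (76.9 ± 18.1%, SD, n = 2, and 58.1 ± 34.1%, SD, n = 3). The difference of 18.8 ± 23.5 percentage points (SE) gave an exact permutation p of 0.60 (adjusted p = 0.96), and it lay between 5.98 (without cKO cocaine replicate 1) and 38.5 (without cKO saline replicate 1) when a library was left out. Of the other protein-coding genes, 52.5 and 23.3% had a peak after cocaine and 61.1, 16.5 and 13.2% after saline (means 37.9 and 30.3%). Covered length in channel windows was 107.8 and 37.8 kb after cocaine and 134.9, 23.0 and 12.3 kb after saline, a log2 difference of 0.92 ± 1.28 (SE, exact permutation p = 0.60, adjusted p = 0.96), with 0.17 and 1.92 without cKO cocaine replicate 1 and without cKO saline replicate 1. The replicate 1 libraries, with their long lists, held the highest value of each group. Without both of them, 1 cocaine library of 37.8 kb remained against saline libraries of 23.0 and 12.3 kb, and the differences were 25.6 percentage points and 1.17 on the log2 scale.

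Members higher in both cKO cocaine libraries than in any cKO saline library were Cacna1s, Cacng6 and Scn4b, 7.69% beside 2.66% of all protein-coding genes, and none was lower, beside 0.0532%. Without cKO saline replicate 1 the count of higher members was 20 (51.3% beside 15.8% of all protein-coding genes), and with equal numbers of peaks it was 0 (beside 0.624%), and Cacna1s was lower in place of higher (2.56% beside 0.315%). Without both replicates 1 it was also 20 (51.3% beside 18.6% of all protein-coding genes), and Cacna1h was lower (2.56% beside 0.789%), with 1 cocaine library left. Elements in the gene window were found after cocaine and not after saline in 7 members (among them Cacna1a, Cacna1c, Cacna1s, Cacnb2, Scn10a and Scn2b, 17.9% beside 4.16%). The converse held for Scn4a (2.56% beside 2.42%). Without the replicates 1 no cocaine element can be formed, and the cKO saline replicates 2 and 3 gave elements in 8 members in place of 14 (20.5% beside 6.08% of all protein-coding genes). No member had a peak in both cKO cocaine and no cKO saline libraries, beside 0.324%.

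Genotypes were compared within each treatment. After saline, cKO minus WT was 1.71 ± 21.1 percentage points of genes with a peak (SE, exact permutation p = 1, adjusted p = 1) and 0.18 ± 1.10 in log2 covered length (SE, exact permutation p = 0.90, adjusted p = 1). No member was higher or lower in every cKO saline library than in any WT saline library, beside 0.344 and 0.387% of all protein-coding genes. After cocaine, the differences were 14.5 ± 12.9 percentage points (SE, exact permutation p = 0.30, adjusted p = 0.96) and 0.06 ± 0.79 in log2 covered length (SE, exact permutation p = 1, adjusted p = 1). Higher in both cKO cocaine libraries than in any WT cocaine library were Cacna1d, Cacna2d4, Cacng7 and Scn2b (10.3% beside 3.8%), and Cacng6 was lower (2.56% beside 1.87%). Without the cKO replicates 1 the log2 difference in covered length turned negative in both treatments, to −0.82 after saline and −0.70 after cocaine, and the share of genes with a peak to −17.9 and 1.71 percentage points. The share after cocaine was 27.4 points without cKO cocaine replicate 2. In the remaining libraries 6 members were lower in cKO after saline (among them Cacna1g, Cacna1s and Scn4b, 15.4% beside 3.37%) and none was higher, beside 0.402%. After cocaine, where only cKO replicate 2 was left to set against the 3 WT libraries, the same 4 were higher (10.3% beside 5.77%) and 9 were lower (among them Cacna1a, Cacna1b, Cacna1g and Cacng6, 23.1% beside 8.64%).

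To compare the cocaine effect between the genotypes, the treatment labels of each genotype were permuted in all 200 possible ways. The WT effect minus the cKO effect was −12.8 percentage points of genes with a peak (exact permutation p = 0.605) and 0.12 in log2 covered length (exact permutation p = 0.935). With equal numbers of peaks per library the latter was 1.12 (exact permutation p = 0.04), and relative to each library's covered length it was −0.00096 (exact permutation p = 1). The comparisons share libraries, since each group enters several of them.

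Genes whose products act with these channels were counted from a list of 38 partners, of which 37 could be measured and Fgf13, on the X chromosome, could not. Peaks were present in all 11 libraries in 7 of them (18.9% beside 7.13% of all protein-coding genes), including Cabp1, a neuronal calcium sensor that binds calcium channels, Stac2 and Stac3, adaptors of L-type channels, and Rem1, a small GTPase that inhibits calcium channels. In 8 (21.6% beside 26.8%), including Nalcn, the sodium leak channel gene, and its partners Unc79 and Unc80, peaks were found only in the cKO replicates 1. Covered length was higher in every WT cocaine library than in any WT saline library in 5 partners (among them Cabp1, Hcn4, Nedd4l and Stac2, 13.5% beside 6.13% of all protein-coding genes) and lower in none, beside 0.111%.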

How the data were processed

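Thalamic H2Aub was measured by ChIPmentation, in which Tn5 inserts adapters into bead-bound chromatin. According to the published methods, reads were trimmed (Cutadapt), aligned to mm10 (Bowtie2 2.3.4.1) and turned into broad peaks by MACS2 (2.1.1.20160309.3) with input chromatin as the control, separately for each library. The deposited lists give, by the authors' caller, a score, fold enrichment (a linear ratio), −log10 p and −log10 q per peak. The 4 input libraries were not analysed here. All peaks of the deposited lists were used (highest q 0.0997). The study states a minimum depth for all samples, but that of each library is unknown, so no counting error can be given, and the number of libraries limits precision.

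Genes and coordinates came from a RefSeq table of GRCm38.p6 (the coordinates of mm10), without strand. Any overlap of 1 bp counted as a peak in a window. Covered bp were summed over merged peaks and compared by exact permutation over libraries, with Benjamini-Hochberg adjustment (Python 3.11.15, NumPy 2.4.6), tested on simulated data. The methods of the study call the pools of a group biological replicates. Members and lists were chosen with earlier results of these data known. Genes were named if they led in covered length or length per kb, were separated between groups, had a peak in all or no libraries, or were Cacna1g, Cacna1h, Scn1a or Scn4b, and the other members were counted. Values of some genes are not reported here, though counts and totals include them. Alternatives were q at most 0.05, equal peak numbers, windows without flank or with 10 kb, gene ends alone, scaling, blocking by replicate number and leaving out each library. No sequence was printed because no genome was used here.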

Additional observations from a re-analysis of the deposited data

How the results depend on the processing

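Of 227 values recomputed under alternatives, 181 kept their direction and their side of the threshold, or, for counts, stayed within 1.5 times. Most tests of group differences could not reach 0.05, so that their side of the threshold was fixed by the design. The 4.07-fold density over receptor genes held under every alternative run, none of which matched gene length between the sets. The unknown depth of each library and 2 or 3 libraries a group limit all group comparisons, and where a value changed, the cause was not tested. With equal numbers of peaks per library, the share of channel genes with a peak became −1.28 (cKO treatment), −1.71 (genotype after saline), −8.12 (genotype after cocaine) and 6.41 (interaction) percentage points. Log2 covered length became −0.32, −0.39, −1.51 and 1.12 in the same order, the density ratios to other and potassium channel genes −0.37 and −0.21, and the separated genes 6 higher in WT, 0 higher in cKO and 1 lower in cKO (beside 3.17, 0.624 and 0.315% of all protein-coding genes). Relative to each library's covered length, log2 differences became −0.0822 (genotype after saline), −0.0812 (genotype after cocaine) and −0.00096 (interaction), and in WT 3 genes were higher and 1 lower (beside 2.98 and 0.977%). Without flanks 7 genes were higher in WT (17.9% beside 4.76%), and with 10 kb the ratio to potassium channel genes was 0.0416.

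Without both cKO replicates 1, genotype after saline became −17.9 percentage points and −0.82 log2, genotype after cocaine −0.70 and the interaction −0.12 log2, and 20 genes were higher and 1 lower in cKO (beside 18.6 and 0.789%). Leaving out each library in turn, the share of genes with a peak ran from −0.43 (without WT saline replicate 2) to 12.4 percentage points for WT treatment, from 5.98 to 38.5 for cKO treatment, from 1.71 to 27.4 for genotype after cocaine, from −17.9 (without cKO saline replicate 1) to 12.8 for genotype after saline, and from −32.5 to 0 (without cKO cocaine replicate 1) for the interaction. Log2 covered length ran from 0.17 to 1.92 for cKO treatment, from −0.82 (without cKO saline replicate 1) to 0.90 for genotype after saline, from −0.70 (without cKO cocaine replicate 1) to 0.81 for genotype after cocaine, and from −0.88 (without cKO saline replicate 1) to 0.88 for the interaction. WT saline replicate 2, WT cocaine replicates 2 and 3 and cKO cocaine replicate 2 also turned the sign of some of these, and WT saline replicate 2 and cKO saline replicates 2 and 3 that of the ratio to potassium channel genes (−0.0510 to 0.0289). Separated genes ran from 0 to 1 lower in WT (Cacnb1, without WT saline replicate 3, beside 0.595% of all protein-coding genes), from 3 to 20 higher in cKO (without cKO saline replicate 1, beside 15.8%, and 10, or 25.6% beside 22.1%, without cKO cocaine replicate 2) and from 0 to 1 lower in cKO (Cacna1h, without cKO cocaine replicate 1, beside 0.755%).

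Replicate numbers did not pair the WT samples, and the 2 cKO pairs are too few to tell. Same-numbered WT cocaine and saline libraries deviated together with r = 0.00898, −0.0327 and 0.0333 across genes, and the cKO pairs had r = 0.480 and 0.373, where both replicates 1 have the long lists. With replicate number as a block, the cKO treatment difference became 7.69 percentage points and 0.20 log2, log2 covered length for genotype after cocaine became −0.18 and no other comparison changed its direction or its side of the threshold.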
